A study of Mus musculus with 60 samples.

Results

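The genes described here serve antigen presentation by class I molecules of the major histocompatibility complex (MHC). They were chosen by name as 10 symbols: the heavy chains H2-K1 and H2-D1, their light chain B2m, the peptide transporter Tap1 and Tap2, the loading factor Tapbp, the inducible proteasome subunits Psmb8, Psmb9 and Psmb10, and the transactivator Nlrc5. All 10 were found among the 54532 genes of the count table, and all 10 passed the filter on low counts that kept 18562 genes. They were followed through 60 libraries of total RNA from whole tissues of female C57BL6/J mice of 6 weeks, in 15 tissues with 4 replicates each. All mice had been anaesthetised and perfused through the heart with phosphate-buffered saline and EDTA, and the tissues were kept in RNAlater and frozen. The libraries were primed with oligo(dT) and read the 3′ end of each transcript. Spleen, thymus, blood, bone marrow, mesenteric lymph node and inguinal lymph node are called immune tissues here. Skin, lung, liver, kidney, heart, brain, the female reproductive tract, colon and small intestine are called other tissues. The titles of the blood samples name mononuclear cells, and their tissue field names whole blood. No treatment and no genotype other than the strain is given, and all groups share strain, sex, age and perfusion. There were 6 immune and 9 other tissues. The study's stated subject was immune processes at the level of the organism.

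Class I molecules show peptides from inside the cell to CD8 T cells. The peptides are cut by the proteasome, carried into the endoplasmic reticulum by the Tap1 and Tap2 transporter and loaded, with the help of tapasin (Tapbp), onto a heavy chain that has paired with beta-2-microglobulin. Interferons raise the whole pathway: in the immunoproteasome, Psmb8, Psmb9 and Psmb10 take the places of the constitutive catalytic subunits Psmb5, Psmb6 and Psmb7, and Nlrc5 acts on class I promoters together with the RFX, NF-Y and CREB factors. Nearly all nucleated cells can present class I peptides, but neurons are known for low levels and leukocytes for high ones.

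In mouse build mm10, 7 of the 10 genes lie on chromosome 17, 2 on chromosome 8 and 1 on chromosome 2. Psmb9 (chr17:34181987-34187764, minus strand), Tap1 (chr17:34187553-34197225), Psmb8 (chr17:34197721-34201454) and Tap2 (chr17:34203527-34216321) lie side by side within 34335 bases. The gene models of Psmb9 and Tap1 overlap by 212 bases on opposite strands at their 5′ ends. H2-K1 (chr17:33996017-34000347, minus strand) and Tapbp (chr17:33915899-33929292) lie near that cluster, and H2-D1 (chr17:35262730-35267499) lies farther along the same chromosome. Psmb10 (chr8:105935735-105938444, minus strand), Nlrc5 (chr8:94434356-94527272) and B2m (chr2:122147686-122153083) lie elsewhere. All 10 are protein-coding, and those without a stated strand are on the plus strand.

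Promoters of RefSeq (build GRCm38.p6, 250 bases before and 50 after the start) were found for 8 of the 10 genes, and for neither Tap2 nor Nlrc5. They are shown because the heavy chains and the light chain share an arrangement of motifs that was not used to choose the genes. Capitals mark matches, on either strand, to the interferon-response core (GAAA, any 2 bases, GAAA), the CREB-like core TGACG, the CCAAT box CCAAT or the kappaB consensus, and marks can overlap.
H2-K1 (chr17:34000298-34000597, minus strand): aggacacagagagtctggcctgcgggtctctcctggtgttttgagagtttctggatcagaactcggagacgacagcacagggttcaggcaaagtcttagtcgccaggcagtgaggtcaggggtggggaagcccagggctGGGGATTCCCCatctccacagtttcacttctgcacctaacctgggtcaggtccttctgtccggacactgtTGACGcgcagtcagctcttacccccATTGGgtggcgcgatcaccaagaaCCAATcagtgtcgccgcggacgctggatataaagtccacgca
H2-D1 (chr17:35262844-35263143, plus strand): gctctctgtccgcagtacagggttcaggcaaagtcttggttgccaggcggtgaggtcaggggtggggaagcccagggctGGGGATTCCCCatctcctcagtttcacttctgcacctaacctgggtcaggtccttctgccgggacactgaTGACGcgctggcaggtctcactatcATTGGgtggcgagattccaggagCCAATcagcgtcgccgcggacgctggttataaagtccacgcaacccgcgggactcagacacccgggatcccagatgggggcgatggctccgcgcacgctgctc
B2m (chr2:122147437-122147736, plus strand): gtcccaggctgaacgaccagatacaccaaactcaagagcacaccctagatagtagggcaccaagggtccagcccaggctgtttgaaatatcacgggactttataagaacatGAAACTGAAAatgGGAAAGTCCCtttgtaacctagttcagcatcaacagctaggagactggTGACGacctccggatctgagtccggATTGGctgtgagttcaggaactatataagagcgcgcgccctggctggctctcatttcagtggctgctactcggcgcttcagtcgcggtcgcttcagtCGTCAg
Tap1 (chr17:34187306-34187605, plus strand): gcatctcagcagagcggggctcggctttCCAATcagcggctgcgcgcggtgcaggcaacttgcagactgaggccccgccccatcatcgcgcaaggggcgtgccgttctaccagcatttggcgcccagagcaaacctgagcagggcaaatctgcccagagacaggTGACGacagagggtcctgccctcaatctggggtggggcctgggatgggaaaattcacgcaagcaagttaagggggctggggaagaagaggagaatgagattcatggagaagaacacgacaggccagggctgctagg
In H2-K1, H2-D1 and B2m, TGACG was followed by the reverse CCAAT box (ATTGG) with 25 bases between the first bases of the 2 motifs. This spacing, which was singled out after the sequences had been seen, was found in 3 of the 8 genes with an entry and in 0.0944% of 32851 promoters of the same length. Since it was read from these promoters, the 2 shares do not test it. The H2-K1 and H2-D1 windows are alike over long runs of bases, so their matches, also to the kappaB consensus, are not separate findings. TGACG was present in 5 of the 8 genes (H2-K1, H2-D1, B2m, Tap1 and Psmb9) and in 20.8% of all promoters. The CCAAT box was present in 6 of the 8 and in 37.4% of all. The kappaB consensus was present in 3 of the 8 (H2-K1, H2-D1 and B2m) and in 4.51% of all, and the interferon-response core in 1 of the 8 (B2m) and in 3.44% of all. The Tap1 window shares 275 bases with that of its neighbour Psmb9, so their matches are largely the same letters. Psmb8 and Psmb10 held none of the 4 motifs in this window. A match is a run of letters and was not tested as a binding site. Only exact matches were counted, so a gene without a match does not thereby lack such an element.

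Library totals ran from 353605 to 5211133 assigned reads, with a median of 2649668. Of 60 tissue marker genes, 54 were highest or second highest in the tissue they mark, and 2 had no read there (Ccl21a in both lymph nodes). Some libraries stood apart from their tissue, named here as 4: brain replicate 3, liver replicate 4 and replicates 3 and 4 of the female reproductive tract. Brain replicate 3 held 393 CPM of the Paneth cell gene Defa24, against 4.59 to 8.51 CPM in the other brain libraries, and liver replicate 4 held 241 CPM against 12.7 to 27.2 CPM. Tapbp was at 133, 157, 302 and 418 CPM in the 4 libraries of the female reproductive tract. No 2 libraries held identical counts. CPM gives a gene's reads relative to all reads of its library. The values are scaled by TMM, a correction for differences in RNA composition, and are compared between tissues for 1 gene at a time, not between genes.

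The pathway was highest in lymphoid tissue and lowest in brain. Inguinal lymph node had the highest mean of 7 of the 10 genes, and brain the lowest mean of all but Psmb10. The span from the lowest to the highest tissue mean differed between the genes: it was 283-fold for Nlrc5, 120-fold for Psmb8, 98.7-fold for Psmb9, 91.0-fold for Tap1, 87.5-fold for H2-K1, 38.1-fold for H2-D1, 37.8-fold for B2m, 21-fold for Tap2, 13.7-fold for Tapbp and 11.5-fold for Psmb10. A gene was called when edgeR's quasi-likelihood test gave an adjusted p below 0.05 (Benjamini-Hochberg over all tested genes) and an absolute log2 fold change above 1. With each tissue set against the mean of the other 14, all 10 genes were called higher in inguinal lymph node (17.1% of all genes were), 8 in blood (18.1%), 7 in spleen (17.8%), 7 in mesenteric lymph node (17.2%) and 5 in thymus (18.9%). In bone marrow none was called higher or lower (17.6% and 16.1% of all genes were). There 5 genes were higher and 2 lower at an unadjusted p below 0.05 in edgeR's test, and DESeq2 called 0 in either direction. The share of all genes at an unadjusted p below 0.05 was not counted, so such counts, here and below, have no baseline. In bulk RNA fewer cells of a type and less RNA per cell cannot be told apart. The 8 pan-leukocyte markers summed to 3008 to 5387 CPM in libraries of the immune tissues and to 65.6 to 814 CPM in those of the other tissues.

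**Figure D1:**
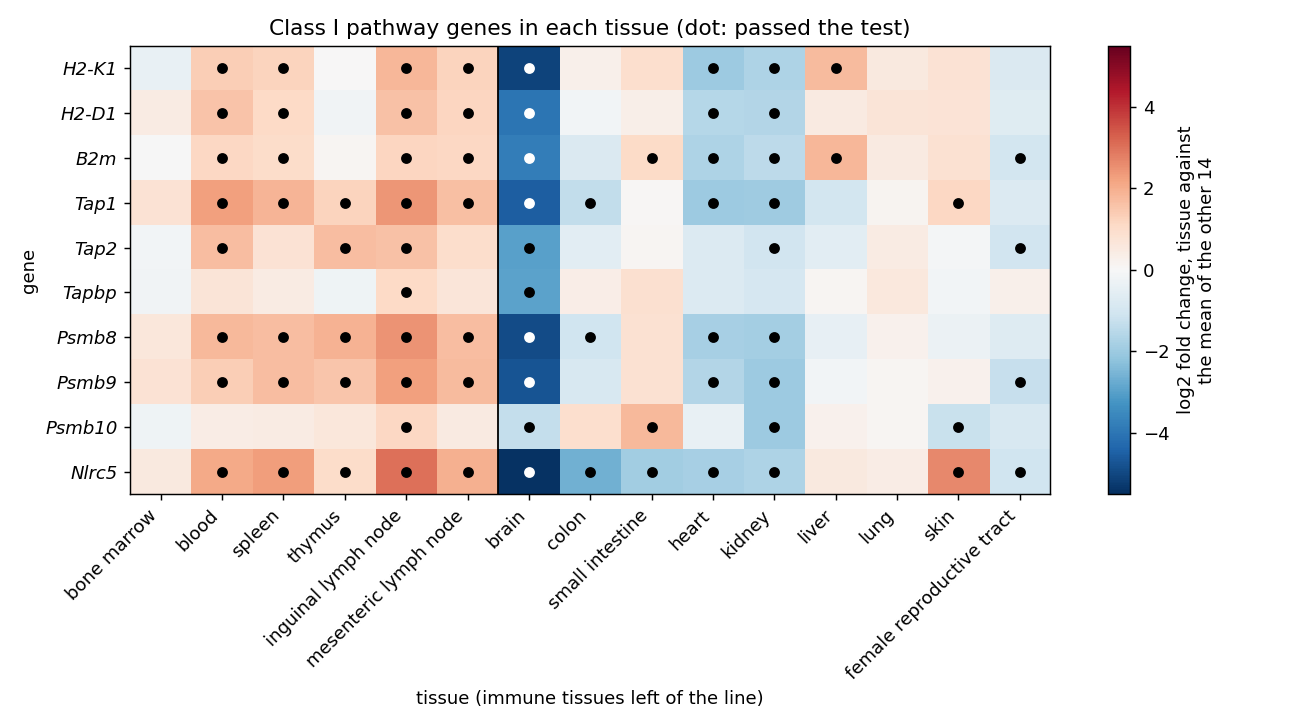
Log2 fold change of each gene (rows) in each tissue (columns) against the mean of the other 14 tissues, with a dot where the gene passed the test. All 10 genes are dotted as higher in inguinal lymph node and all 10 as lower in brain, while bone marrow and lung hold no dot.

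Set against each other as classes, the 6 immune tissues had higher levels of 8 of the 10 genes than the 9 other tissues when the error was that between replicates (19.4% of all genes were called higher). The exceptions, Tapbp (0.65) and Psmb10 (0.74), had log2 fold changes below the size that was asked, and were called with library totals alone (1.11 and 1.19). When the tissue was the unit, in limma on 15 tissue means, 5 of the 10 were called higher (12.1% of all genes were). Those 5 were Tap1 (log2 difference 2.63 ± 0.57 SE, adjusted p = 0.00433), Psmb8 (2.62 ± 0.61, adjusted p = 0.00623), Psmb9 (2.39 ± 0.57, adjusted p = 0.00731), Tap2 (1.68 ± 0.40, adjusted p = 0.00739) and Nlrc5 (2.64 ± 0.73, adjusted p = 0.0168). The heavy chains and the light chain were not among them: the log2 difference in limma was 1.39 ± 0.78 for H2-K1 (adjusted p = 0.2), 1.5 ± 0.59 for H2-D1 (adjusted p = 0.072) and 1.18 ± 0.65 for B2m (adjusted p = 0.186). Liver was high among the other tissues for H2-K1 and B2m, and bone marrow was low among the immune ones. Tapbp (0.66 ± 0.44, adjusted p = 0.277) and Psmb10 (0.73 ± 0.44, adjusted p = 0.233) were not called by limma either. The median over the 10 genes was 1.61 with the error between replicates, against -0.16 over all genes.

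H2-K1 encodes the heavy chain of the K molecule. It was measured at 2369, 2570.1, 1989 and 2196 CPM in the 4 inguinal lymph node libraries and at 2425, 2223, 2141 and 1822 CPM in liver. The ranges of these 2 tissues overlapped, and both lay above all libraries of blood (1677 ± 38 CPM, SD, n = 4), mesenteric lymph node (1561 ± 116) and spleen (1550.5 ± 51.8). Small intestine (1272 ± 174), skin (1182 ± 43.9), lung (988 ± 77.4) and colon (841 ± 79.6) followed, all above thymus (708 ± 48.9) and bone marrow (531 ± 38.1). Kidney (231 ± 25.6) and heart (190.2 ± 31.1) were low, and brain (26.1 ± 5.55) was below every library of every other tissue. In the female reproductive tract replicate 4 had 833 CPM and the other 3 libraries had 257 to 323 CPM. Along the order of 15 tissues, 8 of the 14 steps joined tissues whose libraries overlapped.

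H2-D1 encodes the heavy chain of the D molecule and followed a similar order. It was highest in inguinal lymph node (1610.0 ± 177 CPM, SD, n = 4) and blood (1564 ± 115), which overlapped, and then in mesenteric lymph node (1201 ± 57.6) and spleen (1149 ± 32.5). Skin (918 ± 25.9), lung (878 ± 62.8), liver (772 ± 87.9), bone marrow (757 ± 47.0) and small intestine (684 ± 59.4) formed a run in which each tissue overlapped the next. Colon (513 ± 48.2), thymus (501 ± 15.4) and the female reproductive tract (369 ± 178) formed another. Heart (202 ± 12.6), kidney (197 ± 18.5) and brain (42.2 ± 2.91) were lowest.

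The 2 heavy chains were not in the same proportion in all tissues. The log2 ratio of H2-K1 to H2-D1 reads in liver was 1.45, 1.53, 1.5 and 1.43 in the 4 libraries, a geometric mean ratio of 2.79, and every liver library was above every library of every other tissue. Small intestine (0.89 ± 0.13, SD, n = 4) and colon (0.71 ± 0.15) came next. The ratio was near 0 in blood (0.10 ± 0.10) and heart (-0.10 ± 0.24), and it was lowest in bone marrow (-0.51 ± 0.07) and brain (-0.72 ± 0.29). In log2 fold changes, liver was 1.74 ± 0.11 (SE) higher than the other 14 tissues for H2-K1 and 0.49 ± 0.10 higher for H2-D1, of which the first was called. For B2m to H2-K1 reads the log2 ratio was highest in brain (1.91 ± 0.26, SD, n = 4), above all other tissues, and lowest on average in colon (-0.30 ± 0.27), where replicate 4 (-0.06) was above blood replicate 1 (-0.09). The last 500 bases of the H2-K1 transcript share 0.444% of their 50-base words with another gene, which is H2-D1, and those of H2-D1 share 9.53% with 1 or more of 80 other genes.

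B2m encodes beta-2-microglobulin, the light chain of all class I molecules. It was highest in liver, with 4128, 3587, 3882 and 3204 CPM, and all 4 liver libraries were above those of inguinal lymph node (3034, 2568, 1975 and 2190.0 CPM). Blood (2375 ± 594 CPM, SD, n = 4), mesenteric lymph node (2370.2 ± 109), small intestine (2265 ± 129) and spleen (2228 ± 84.3) formed a run of overlapping tissues with inguinal lymph node. Skin (1945 ± 147), lung (1569 ± 135), thymus (1224 ± 204) and bone marrow (1140.2 ± 59.7) were lower. Colon (686 ± 86.8), the female reproductive tract (593 ± 248), kidney (452 ± 57.6) and heart (383 ± 39.5) were lower again, and brain (97.8 ± 19.9) was lowest.

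In liver, H2-K1 (1.74 ± 0.11) and B2m (1.81 ± 0.11) were the only 2 of the 10 genes called higher (18.4% of all genes were), and none was called lower (16.7%) in edgeR's test. At an unadjusted p below 0.05 in that test, 3 of the 10 were lower in liver, and DESeq2 called 1 lower, Tap1 (-1.0). The leukocyte markers summed to 208 to 267 CPM in the liver libraries. Scaling by library totals alone moved the median of all genes in liver from -0.25 to -1.22 on the log2 scale, and then neither gene was called, with 0.69 for H2-K1 and 0.76 for B2m. Under that scaling H2-D1 (-0.56), Nlrc5 (-0.51), Tapbp (-0.96) and Psmb10 (-0.84) were below 0 in liver. H2-K1 and B2m lay above the median of all genes by more than the size asked under both scalings. A change of scaling moves all genes of a tissue nearly alike, so this distance is not a second check. Without liver replicate 4 and the other 3 libraries that stand apart, H2-K1 (1.85) and B2m (1.89) were still called.

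Tap1 encodes one chain of the peptide transporter. Its levels were 198, 239, 161 and 202 CPM in inguinal lymph node and 172, 193, 169 and 179 CPM in blood, and these 2 tissues overlapped. Spleen (138 ± 6.83 CPM, SD, n = 4), mesenteric lymph node (119 ± 18.2), thymus (91.8 ± 7.79) and skin (86.5 ± 4.46) formed the next run, and bone marrow (68.9 ± 7.74) followed. Skin was the one tissue outside the immune class whose libraries were all above those of bone marrow, and Tap1 was called higher there (1.14 ± 0.13 SE). Lung (44.6 ± 13.1), small intestine (42.9 ± 7.59), the female reproductive tract (26.1 ± 19.9), liver (21.5 ± 6.00), colon (17 ± 4.68), kidney (11.7 ± 2.97) and heart (11.2 ± 2.87) overlapped one after the other. Brain had 1.40, 1.70, 4.39 and 1.31 CPM, with the highest value in replicate 3, the library with high Defa24.

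Tap2 encodes the other chain of the transporter. It had its highest mean in thymus (83.5, 76.9, 73.7 and 97.3 CPM), where it overlapped blood (80.1 ± 8.80 CPM, SD, n = 4) and, in turn, inguinal lymph node (76.3 ± 14.4). These 3 tissues were above mesenteric lymph node (51.1 ± 9.55) and spleen (45.3 ± 6.90). From lung (35.7 ± 6.27) over small intestine (28.9 ± 2.69) and skin (25.4 ± 6.33) to bone marrow (25 ± 3.27) the tissues overlapped one after the other. Liver (18.6 ± 1.08), colon (18.4 ± 1.47), heart (16.5 ± 2.66), the female reproductive tract (13.8 ± 8.22) and kidney (13.7 ± 2.76) were lower, and brain (3.95 ± 1.52) was lowest.

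The 2 transporter chains did not keep 1 proportion either. For Tap2 to Tap1 reads the log2 ratio was -1.79 ± 0.31 (SD, n = 4) in skin, -1.62 ± 0.15 in spleen and -1.46 ± 0.22 in bone marrow, and -0.15 ± 0.16 in thymus. In thymus it was above every library of the 5 other immune tissues. It was 0.57 ± 0.52 in heart and 0.90 ± 0.57 in brain, where it rests on 29 reads of Tap1. Tap2 and Psmb8 were the 2 genes called higher in thymus than in bone marrow (log2 fold changes 1.61 ± 0.13 and 1.09 ± 0.09 SE, 15.3% of all genes called higher).

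Tapbp encodes tapasin, which holds empty class I molecules at the transporter. Its levels differed less between tissues. Inguinal lymph node (414 ± 41.9 CPM, SD, n = 4), small intestine (356 ± 36.8), blood (323 ± 18.7), mesenteric lymph node (310.4 ± 20.8), lung (296 ± 15.1), spleen (269.9 ± 15.1), colon (259.8 ± 13.1), the female reproductive tract (253 ± 133) and liver (215 ± 12) overlapped one after the other. Skin (185 ± 7.33), bone marrow (179 ± 19.8) and thymus (176 ± 15.6) came next, so that 2 of the immune tissues were below colon and liver. Heart (123 ± 5.30), kidney (112 ± 7.50) and brain (30.1 ± 3.22) were lowest.

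**Figure D2:**
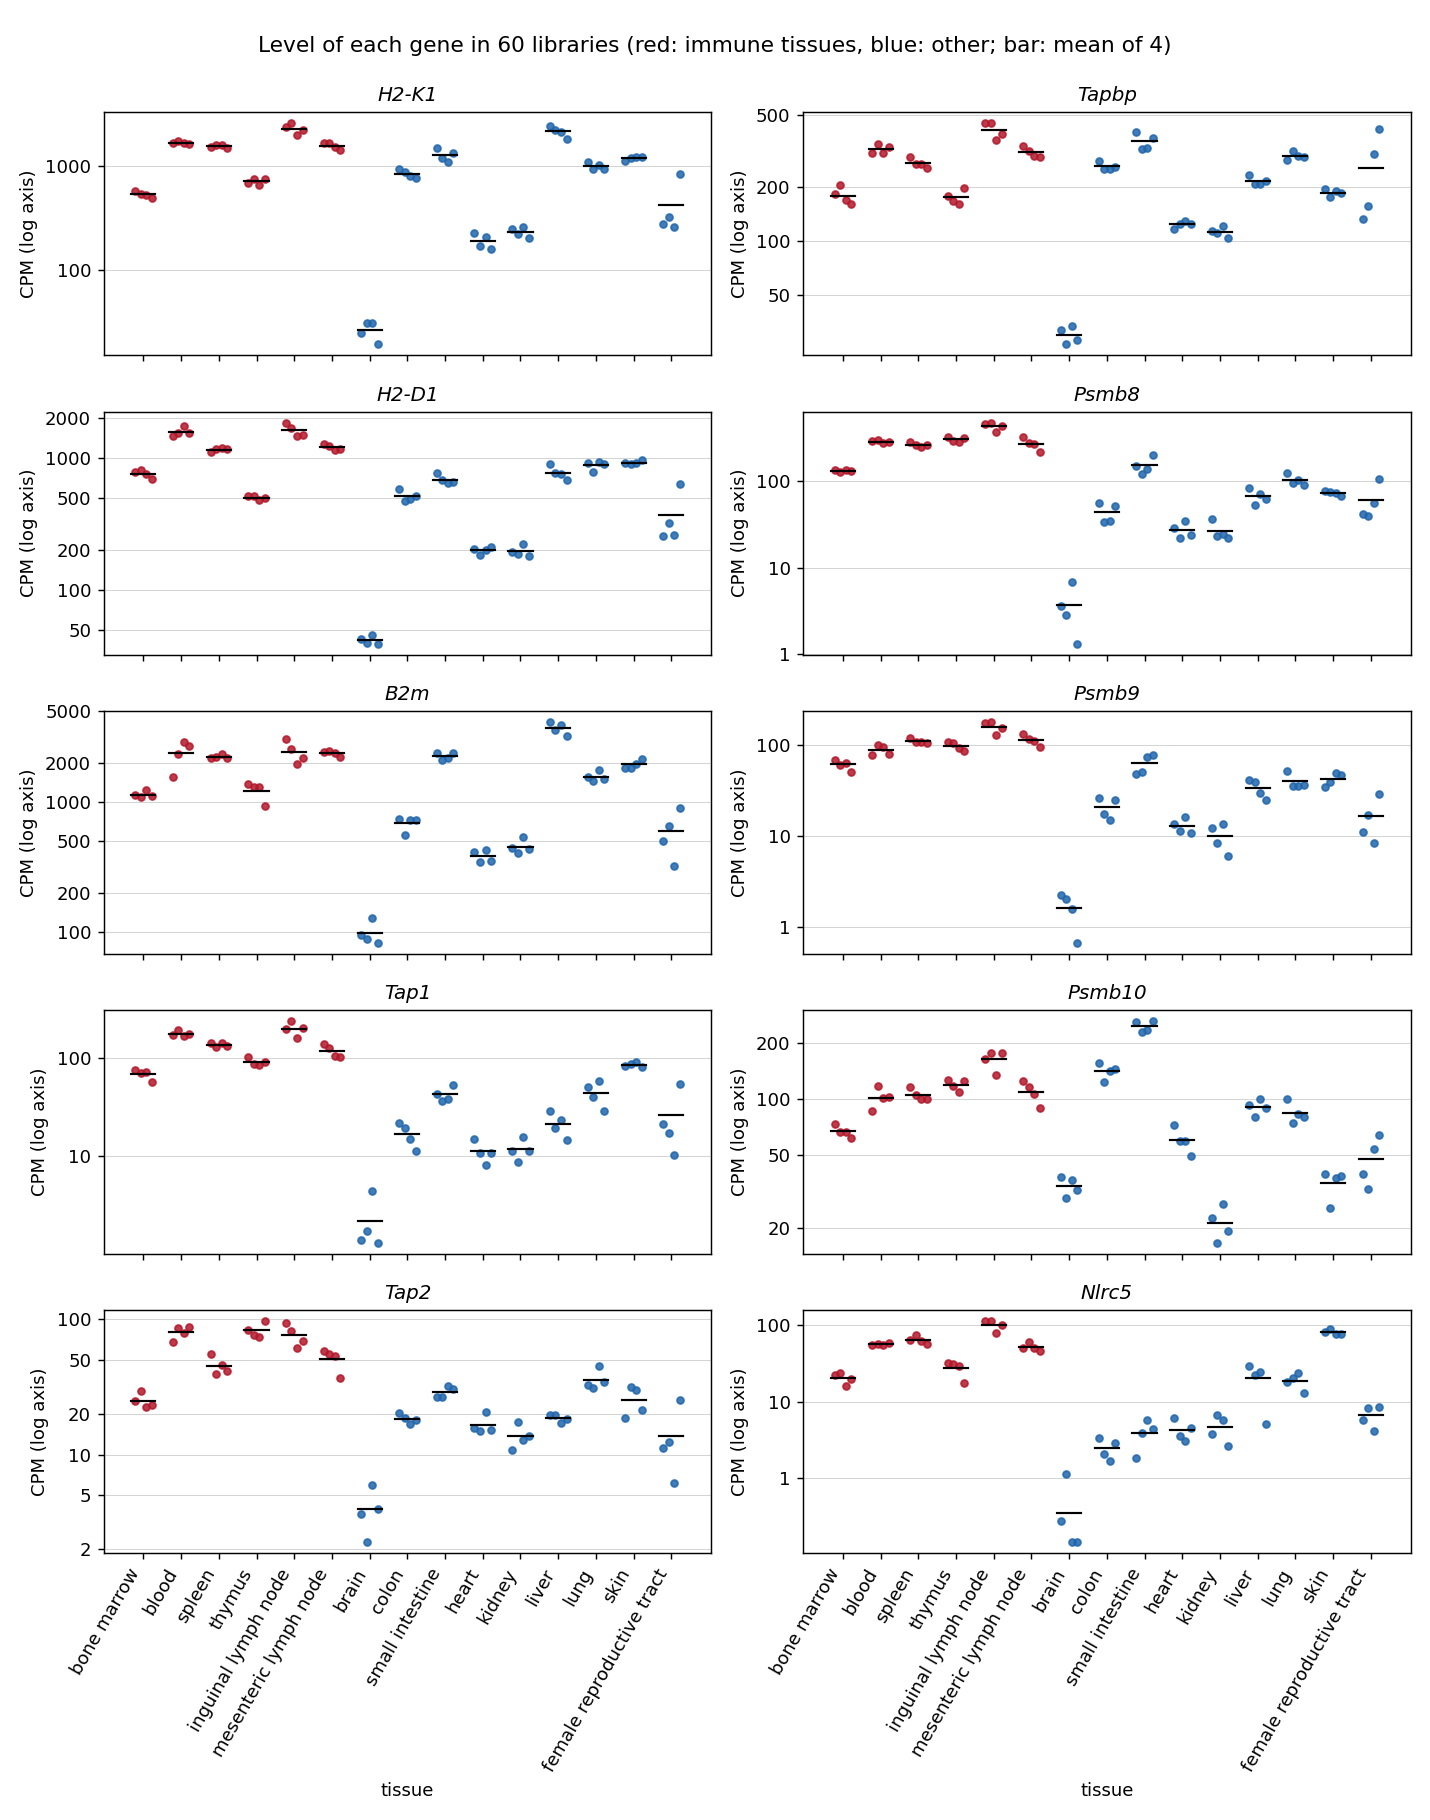
CPM of each of the 10 genes (log axis) in the 4 libraries of each tissue, with the mean as a bar, immune tissues in red and other tissues in blue. Brain is lowest in 9 of the 10 panels, liver is highest for B2m, small intestine for Psmb10 and skin stands among the immune tissues for Nlrc5, where libraries at 0 are drawn at the lower edge.

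Psmb8 and Psmb9 encode catalytic subunits of the immunoproteasome. Psmb8 was measured at 469, 479, 374 and 443 CPM in inguinal lymph node, above all libraries of thymus (307 ± 19.7 CPM, SD, n = 4), blood (288 ± 9.78), mesenteric lymph node (273 ± 42.2) and spleen (267 ± 13.5). These were above small intestine (154 ± 34) and bone marrow (133 ± 3.95), which overlapped, and then lung (104 ± 15.3), skin (73.2 ± 4.29) and liver (67.6 ± 13). The female reproductive tract (61.1 ± 31.4), colon (44.5 ± 11.7), heart (27.4 ± 5.49) and kidney (26.5 ± 6.64) were lower. Brain had 3.63, 2.84, 6.89 and 1.31 CPM, from 49 reads in all.

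Psmb9 followed the same broad order, from inguinal lymph node (159 ± 22.4 CPM, SD, n = 4) over mesenteric lymph node (114 ± 15.6), spleen (109 ± 5.89), thymus (97.8 ± 11) and blood (88.5 ± 11.1), each overlapping the next. Small intestine (62.6 ± 15.1) and bone marrow (60.8 ± 7.81) overlapped and were below all libraries of blood. Skin (42.5 ± 6.85), lung (39.7 ± 7.57), liver (33.5 ± 7.71), colon (20.9 ± 5.45), the female reproductive tract (16.3 ± 9.11), heart (12.9 ± 2.38) and kidney (10.0 ± 3.47) followed. Brain was at 1.61 ± 0.69 CPM, from 22 reads.

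Psmb10, the inducible subunit that takes the place of Psmb7, had another order. It was highest in small intestine, with 259, 229.8, 235 and 263 CPM, and these libraries were above all 4 of inguinal lymph node (165, 178, 135 and 176 CPM). Colon (141 ± 13 CPM, SD, n = 4) overlapped inguinal lymph node and was followed by thymus (119 ± 7.79), mesenteric lymph node (109 ± 15.0), spleen (105 ± 7.85) and blood (102 ± 13). Liver (90.7 ± 8.35), lung (83.9 ± 11.1), bone marrow (66.8 ± 4.61), heart (59.97 ± 9.25) and the female reproductive tract (47.4 ± 13.9) came next. Skin (35.1 ± 6.38) and brain (33.8 ± 3.88) overlapped, and kidney (21.5 ± 4.42) was lowest. Psmb10 was called higher in small intestine (1.76 ± 0.08 SE), inguinal lymph node (1.13 ± 0.08) and no other tissue, and lower in skin (-1.24 ± 0.12), brain (-1.30 ± 0.11) and kidney (-2.0 ± 0.13). With library totals alone Psmb10 was also called higher in colon (1.28) and thymus (1.09) and lower in heart (-1.78). In skin, where 2 genes were called higher (18.4%) and 1 lower (6.38%), it was the one called lower.

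The ratio of each inducible subunit to the constitutive subunit whose place it takes needs no scaling between libraries. The log2 ratio of Psmb8 to Psmb5 reads was on average 2.84 in the immune tissues and -0.55 in the others, a difference of 3.40 (exact two-sided permutation test over 15 tissue means, p = 0.000999). For Psmb9 to Psmb6 the averages were -0.07 and -3.18, a difference of 3.11 (exact permutation p = 0.000400). For Psmb10 to Psmb7 they were 3.27 and 2.27, a difference of 1.00 (exact permutation p = 0.104). Adjusted over these 3 tests (Benjamini-Hochberg), the permutation p-values were 0.0015, 0.0012 and 0.104. Every immune tissue had a higher mean ratio than every other tissue for the first 2 pairs, and for the third pair small intestine, with 4.47 ± 0.61 (SD, n = 4), had the highest mean of all.

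Within the classes the ratios formed a wide scale. Psmb8 to Psmb5 was highest in blood (3.39 ± 0.11, SD, n = 4) and inguinal lymph node (3.24 ± 0.18), and lowest among immune tissues in bone marrow (1.64 ± 0.06), which overlapped small intestine (1.31 ± 0.38). Lung (1.28 ± 0.11), skin (0.65 ± 0.07) and the female reproductive tract (0.54 ± 0.63) were above 0, and colon (-0.49 ± 0.22), liver (-0.61 ± 0.38), kidney (-1.64 ± 0.33), heart (-1.87 ± 0.34) and brain (-4.15 ± 0.87) were below it. Psmb9 to Psmb6 was highest in blood (0.37 ± 0.25) and went down over thymus (-0.61 ± 0.24), bone marrow (-0.92 ± 0.15) and lung (-1.58 ± 0.26) to heart (-4.21 ± 0.27) and brain (-6.11 ± 0.59). Psmb10 to Psmb7 was lowest in kidney (0.57 ± 0.26), heart (1.17 ± 0.13), skin (1.24 ± 0.27) and brain (1.42 ± 0.39), and the Psmb7 side rests on 45 reads in colon and 45 in lung. Psmb11, the subunit of the thymus cortex that takes the place of Psmb5 there, was at 113 ± 9.48 CPM in thymus and below 1 CPM on average in all other tissues.

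**Figure D3:**
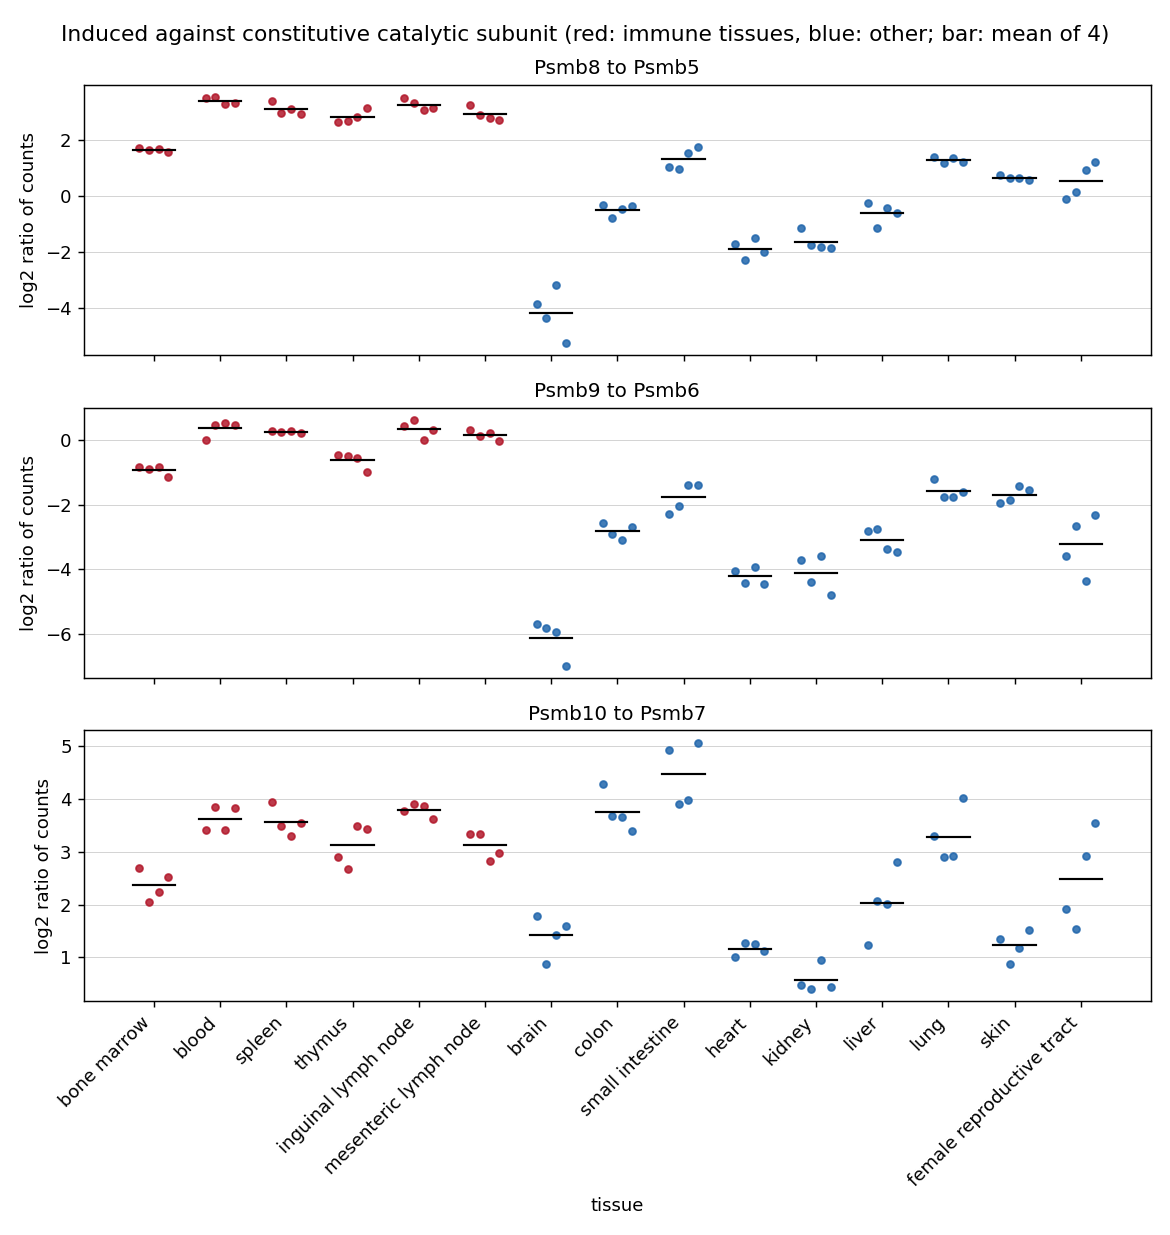
Log2 ratio of reads of each inducible catalytic subunit to those of its constitutive counterpart, for the 4 libraries of each tissue with their mean as a bar. For Psmb8 to Psmb5 and Psmb9 to Psmb6 the immune tissues (red) lie above the others (blue), while for Psmb10 to Psmb7 small intestine has the highest mean.

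The inducible subunits also parted from each other. The log2 ratio of Psmb8 to Psmb10 reads ranged from 1.51 ± 0.18 (SD, n = 4) in blood, 1.43 ± 0.08 in inguinal lymph node and 1.36 ± 0.04 in thymus to -0.70 ± 0.23 in small intestine, -1.13 ± 0.28 in heart, -1.69 ± 0.28 in colon and -3.36 ± 0.85 in brain. The 5 immune tissues other than bone marrow lay between 1.32 and 1.51 on average, a narrow band. Skin (1.07 ± 0.32) and bone marrow (1.00 ± 0.09) were just below it.

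Nlrc5 encodes the transactivator of class I genes. It was highest in inguinal lymph node, with 110.2, 112, 78.4 and 99.0 CPM, and in skin, with 78.8, 88.4, 75.0 and 76.4 CPM. These overlapped, and skin was above all libraries of spleen (63.4 ± 6.94 CPM, SD, n = 4), blood (55.2 ± 1.88) and mesenteric lymph node (51.1 ± 6.14). Thymus (27.1 ± 6.56), bone marrow (20.3 ± 3.20), liver (20.1 ± 10.3) and lung (18.6 ± 4.54) formed the next run, and in liver replicate 4 had 5.12 CPM and the others 22.4 to 28.9 CPM. The female reproductive tract (6.64 ± 2.04), kidney (4.68 ± 1.83), heart (4.30 ± 1.30), small intestine (3.95 ± 1.61) and colon (2.49 ± 0.77) followed. Brain held 5 reads of Nlrc5 over its 4 libraries, with 0 in 2 of them, so its pooled level was below 0.874 CPM (exact Poisson 95% upper bound, counting error only).

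In skin Nlrc5 was called higher than in the other 14 tissues by a log2 fold change of 2.66 ± 0.13 (SE), beside Tap1, while H2-K1 (0.81 ± 0.12), H2-D1 (0.76 ± 0.09) and B2m (0.82 ± 0.12) were below the size asked. The 8 leukocyte markers summed to 266 to 410 CPM in skin, with a median log2 fold change of -0.82 and 3 called lower, and to 520 to 814 CPM in lung, with a median of 0.17. In small intestine and colon Nlrc5 went the other way, with log2 fold changes of -1.93 ± 0.27 and -2.66 ± 0.38 (SE), both called lower. The log2 ratio of Nlrc5 to H2-K1 reads was highest in skin (-3.89 ± 0.13, SD, n = 4), where every library was above every library of every other tissue, and lowest in colon (-8.19 ± 0.36) and small intestine (-8.34 ± 0.82). Nlrc5 had 11 reads in colon and 37 in small intestine, against 3706 and 11447 of H2-K1.

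**Figure D4:**
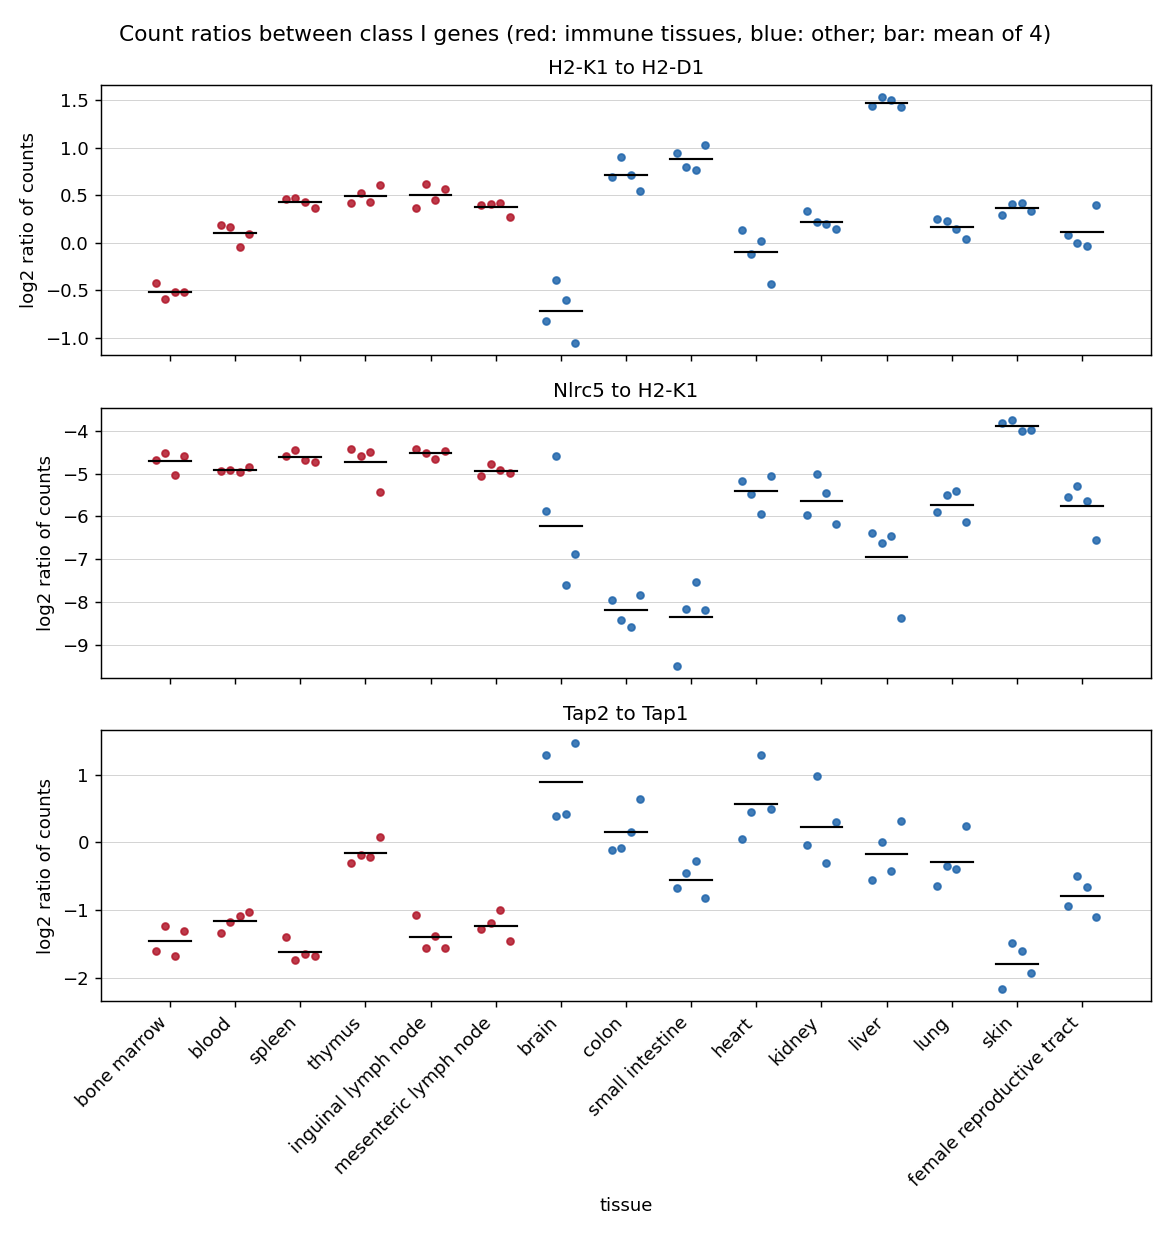
Log2 ratios of H2-K1 to H2-D1, Nlrc5 to H2-K1 and Tap2 to Tap1 reads for the 4 libraries of each tissue, with their mean as a bar. Liver stands above all other tissues in the first panel, skin in the second with both parts of the intestine at the bottom, and thymus lies above the other immune tissues in the third.

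Brain was the lowest tissue for the pathway as a whole. All 10 genes were called lower there (16.1% of all genes were), by log2 fold changes from -1.30 ± 0.11 (SE) for Psmb10 to -5.08 ± 0.20 for H2-K1 and -5.44 ± 0.38 for Nlrc5. Without brain replicate 3 and the other 3 libraries that stand apart all 10 were still called. Heart and kidney were low too: 9 genes were called lower in kidney (9.51% of all genes were), all but Tapbp (-0.91 ± 0.13), and 7 in heart (12.9%), all but Tap2 (-0.76 ± 0.16), Tapbp (-0.77 ± 0.13) and Psmb10 (-0.42 ± 0.11). With library totals alone, which moved the median of all genes in heart to -1.38, these 3 were called lower too (-2.12, -2.12 and -1.78), and so was Tapbp in kidney (-1.35). The leukocyte markers summed to 99.0 to 109 CPM in brain, 82.6 to 104 CPM in heart and 65.6 to 94.4 CPM in kidney. Single leukocyte markers differed between these tissues: Ptprc was at 4.24 ± 0.80 CPM (SD, n = 4) in brain, 11.5 ± 2.59 in heart and 13.3 ± 4.99 in kidney, and brain was below all libraries of the other two. Of 6 leukocyte markers tested between heart and brain 3 were called higher in heart and 1, Coro1a (-2.41 ± 0.16 SE), lower. In that pair edgeR called 22.2% of all genes higher in heart. DESeq2 called 2965 of 13648 genes higher and 4323 lower, and of the 6 markers also 3 higher and 1 lower. With library totals alone 0 of the 6 markers were called higher in heart and 3 lower, so their direction turned on the scaling. The part of leukocyte content in these differences was not tested. Endothelial markers, by contrast, summed to 1030 to 1095 CPM in heart and 117 to 144 CPM in brain.

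In colon 3 genes were called lower (14.4% of all genes were): Nlrc5, Tap1 (-1.37 ± 0.22 SE) and Psmb8 (-1.09 ± 0.18). With library totals alone Tap1 (-0.99) and Psmb8 (-0.71) lost the call and Psmb10 (1.28) was called higher. In small intestine B2m (1.05 ± 0.11) and Psmb10 were called higher (19.9% of all genes were) and Nlrc5 lower (8.5%), and B2m lost its call under DESeq2 (0.99) and under library totals (0.85). In lung no gene was called higher or lower (16.8% and 12.3% of all genes were). There 6 of the 10 were higher and 0 lower at an unadjusted p below 0.05 in edgeR's test, and DESeq2 called 0. In the female reproductive tract 4 genes were called lower (5.31% of all genes were): Psmb9 (-1.26 ± 0.18), Nlrc5 (-1.08 ± 0.24), Tap2 (-1.06 ± 0.17) and B2m (-1.01 ± 0.14). That count turned on single libraries of the tract: with 1 of them left out at a time it was 8 without replicate 4, 0 without replicate 1, 1 without replicate 3 and 3 without replicate 2. Those settings and that without the 4 libraries that stand apart, which gave 7, were chosen after seeing the data. In thymus the call of Nlrc5 (1.02 ± 0.16) was lost under DESeq2 (0.98) and without any one replicate number, with 0.83 to 1.00, so that 4 genes were called there: Psmb8 (1.89 ± 0.11), Tap2 (1.72 ± 0.11), Psmb9 (1.52 ± 0.11) and Tap1 (1.24 ± 0.13).

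Pairs of related tissues were compared on their own libraries in edgeR. Thymus was lower than spleen for 3 genes (16.2% of all genes were called lower), H2-D1 (-1.25 ± 0.08 SE), H2-K1 (-1.18 ± 0.09) and Nlrc5 (-1.25 ± 0.14), while Psmb8 (0.15 ± 0.09), Psmb10 (0.13 ± 0.10) and Psmb9 (-0.21 ± 0.10) had adjusted p of 0.156, 0.253 and 0.0685. Tap2 was higher in thymus by 0.81 ± 0.12, below the size asked. The heavy chains and the immunoproteasome subunits were thus apart in this pair. Small intestine was higher than colon for 4 of 9 tested genes (13.5% of all genes were called higher): Psmb8 (1.65 ± 0.18), B2m (1.59 ± 0.12), Psmb9 (1.45 ± 0.22) and Tap1 (1.19 ± 0.21), with H2-K1 (0.46 ± 0.12) and H2-D1 (0.28 ± 0.11) below the size asked. The call of Tap1 was lost with library totals alone (0.78) and without replicate 4 of both tissues (0.93). Nlrc5 did not pass the filter in that pair.

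Liver was higher than kidney for 7 genes (15.4% of all genes were called higher), by 3.26 ± 0.10 (SE) for H2-K1, 3.07 ± 0.10 for B2m, 2.13 ± 0.38 for Nlrc5, 2.11 ± 0.14 for Psmb10, 2.01 ± 0.09 for H2-D1, 1.77 ± 0.23 for Psmb9 and 1.39 ± 0.17 for Psmb8. The 3 genes of transport and loading, Tapbp (0.98 ± 0.09), Tap1 (0.92 ± 0.23) and Tap2 (0.48 ± 0.20), were below the size asked. Without replicate 3 of both tissues Tap1 (1.07) and Tapbp (1.05) were called, without replicate 4 of both Tap1 (1.04) was, and with library totals alone Psmb8 (0.77) was not. Heart was higher than brain for 8 of 9 tested genes (22.2% of all genes were called higher), from 1.94 ± 0.10 for B2m to 2.91 ± 0.31 for Psmb9, and Psmb10 (0.80 ± 0.12) was below the size asked. With library totals alone, which moved the median of all genes in that pair to -1.40, 4 were called.

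Between the 2 lymph nodes all differences were below the size asked. No gene was called between them in edgeR (5.45% of all genes were called higher in mesenteric lymph node and 1.78% lower), and DESeq2 called 0. At an unadjusted p below 0.05 in edgeR's test, 9 of the 10 were lower in mesenteric lymph node and 0 higher. How many of all genes were lower at that p was not counted. Nlrc5 (-0.88 ± 0.13 SE), Tap1 (-0.65 ± 0.13) and Psmb8 (-0.60 ± 0.12) had the largest differences. Spleen and blood had no called gene either (13.9% of all genes were called higher in spleen and 8% lower), with 4 lower and 1 higher at an unadjusted p below 0.05 in edgeR's test and 0 called by DESeq2. Tap2 was the farthest apart, with -0.85 ± 0.12 (SE), and it was called lower without replicate 1 of both tissues (-1.0).

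The other genes of the pathway were taken from lists by role, and their log2 fold changes between immune and other tissues come from edgeR. Of the constitutive catalytic subunits 0 of 3 were called, where 38.4% of all genes were called in either direction: Psmb5 (-0.74 ± 0.04 SE), Psmb6 (-0.65 ± 0.04) and Psmb7 (-0.30 ± 0.10) were all lower at an unadjusted p below 0.05, and DESeq2 called 0. Of 12 other genes of the 20S core and its assembly 0 were called, with 10 lower at an unadjusted p below 0.05, 0 calls by DESeq2 and a median of -0.24 against -0.16 over all genes. Of the 3 genes of PA28, the interferon-inducible cap of the proteasome, 0 were called by edgeR or DESeq2, with 3 higher at an unadjusted p below 0.05, led by Psme1 (0.80 ± 0.04). In the same comparison 19.4% of all genes were called higher. With library totals alone edgeR called 2 of these 3 higher. With the tissue as the unit in limma, no gene of these 3 lists was called. At an unadjusted p below 0.05 in limma, 2 of the 3 constitutive subunits and 1 of the 12 core genes were lower. Of the 3 genes of PA28, 0 were higher or lower at that p. Of 6 genes of peptide loading and trimming 1 was called higher, Tapbpl (1.31 ± 0.06 SE), a relative of tapasin that edits peptides. Of 9 other factors that act on MHC promoters 4 were called higher: Ciita, the class II transactivator and a relative of Nlrc5 (4.33 ± 0.08), Rfx5 (1.43 ± 0.12), Nfya (1.26 ± 0.06) and Creb1 (1.24 ± 0.05). Of 13 tested receptors and regulators of interferon response 10 were called higher, among them Irf8 (3.64 ± 0.05), Socs1 (2.84 ± 0.12) and Ifnar2 (1.74 ± 0.07), and of 21 interferon-stimulated genes 7, led by Mx1 (3.02 ± 0.18), Gbp4 (2.47 ± 0.11), Igtp (1.76 ± 0.09) and Usp18 (1.51 ± 0.13). With the tissue as the unit in limma, 9 of 13 and 4 of 21 were called higher, where 12.1% of all genes were. With library totals alone, which moved the median of all genes from -0.16 to 0.27, edgeR called 12 of 13 and 17 of 21 higher. The shares of all genes given above belong to TMM scaling and are no baseline for these counts.

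In single tissues these lists did not always go with the 10 genes. In brain 21 of 21 interferon-stimulated genes and 9 of 13 interferon receptors and regulators were called lower, among them Irf1 (-4.42 ± 0.25 SE), an activator of class I genes, while 0 of the 3 constitutive catalytic subunits and 0 of the 12 other core genes were called by edgeR (43.8% of all genes were, in either direction) or DESeq2. At an unadjusted p below 0.05 in edgeR's test, 1 of those 3 was higher and 1 lower, and 1 of those 12 was higher and 9 lower. Psme1 (-2.47 ± 0.10) and Psme2 (-2.43 ± 0.14) of PA28 were called lower there, and Psme3 (-0.11 ± 0.08) was not. In liver, where 18.4% of all genes were called higher and 16.7% lower, 4 of 6 genes of loading and trimming were called higher, Erap1 (1.81 ± 0.11), which trims peptides, Pdia3 (1.54 ± 0.13), Calr (1.40 ± 0.13) and Canx (1.15 ± 0.08), which are also general chaperones of the endoplasmic reticulum. Liver also had 6 of 21 interferon-stimulated genes called higher, led by the guanosine triphosphatase Iigp1 (5.42 ± 0.12) and by Bst2 (2.42 ± 0.24), and Oasl2 (-1.27 ± 0.43) lower. With library totals alone 0 of the 6 genes of loading and trimming were called in liver, and of the 21 interferon-stimulated genes 2 were called higher and 7 lower. In small intestine (19.9% of all genes called higher and 8.5% lower), 3 of 13 interferon receptors and regulators were called higher, among them Irf1 (1.46 ± 0.13) and Ifngr2 (2.14 ± 0.13). None was called lower by edgeR, with 4 lower at an unadjusted p below 0.05 and 1 called lower by DESeq2, and their median was -0.16 against 0.01 over all genes. Of the 21 interferon-stimulated genes 4 were called higher and 2 lower there, with a median of -0.35, and Psme2 (1.64 ± 0.09) was the 1 gene of PA28 called higher. In skin, where Nlrc5 was high, Irf1 (-1.12 ± 0.17) and Irf8 (-2.84 ± 0.14) were called lower. Of the 9 other factors that act on MHC promoters 0 were called by edgeR (24.8% of all genes were, in either direction) or DESeq2. In edgeR's test 5 of the 9 were lower and 0 higher at an unadjusted p below 0.05.

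Across the 15 tissue means of log2 CPM the 45 pairs of the 10 genes had Pearson correlations from 0.27 to 0.99, with a median of 0.85, and from 0.10 to 0.98 without brain, with a median of 0.72. These are descriptions of 15 points that share depth and cell content. The lowest was that of Psmb10 and Nlrc5 (0.27). With Ptprc, the pan-leukocyte phosphatase CD45, Pearson's r was 0.90 for Tap1, 0.89 for Psmb8, 0.88 for Psmb9, 0.86 for Tap2 and 0.82 for Nlrc5, but 0.72 for H2-D1, 0.64 for B2m, 0.60 for H2-K1, 0.55 for Tapbp and 0.45 for Psmb10. With the interferon regulator Irf1 it was 0.94 for Tapbp, 0.89 for Psmb8, 0.88 for Psmb9, 0.87 for H2-D1, 0.85 for H2-K1, 0.85 for Tap2, 0.82 for Psmb10, 0.80 for Tap1, 0.77 for B2m and 0.58 for Nlrc5. Without brain, Pearson's r with Irf1 was 0.88 for Tapbp, 0.86 for Psmb10, 0.79 for Psmb8, 0.77 for Psmb9 and 0.73 for H2-D1 and Tap2. It was 0.68 for H2-K1, 0.66 for Tap1, 0.55 for B2m and 0.35 for Nlrc5. With Ptprc, also without brain, it was 0.92 for Psmb8, 0.90 for Tap1, 0.89 for Psmb9, 0.85 for Tap2 and 0.77 for Nlrc5. For the others it was 0.68 for H2-D1, 0.54 for B2m, 0.49 for H2-K1, 0.40 for Tapbp and 0.35 for Psmb10.

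**Figure D5:**
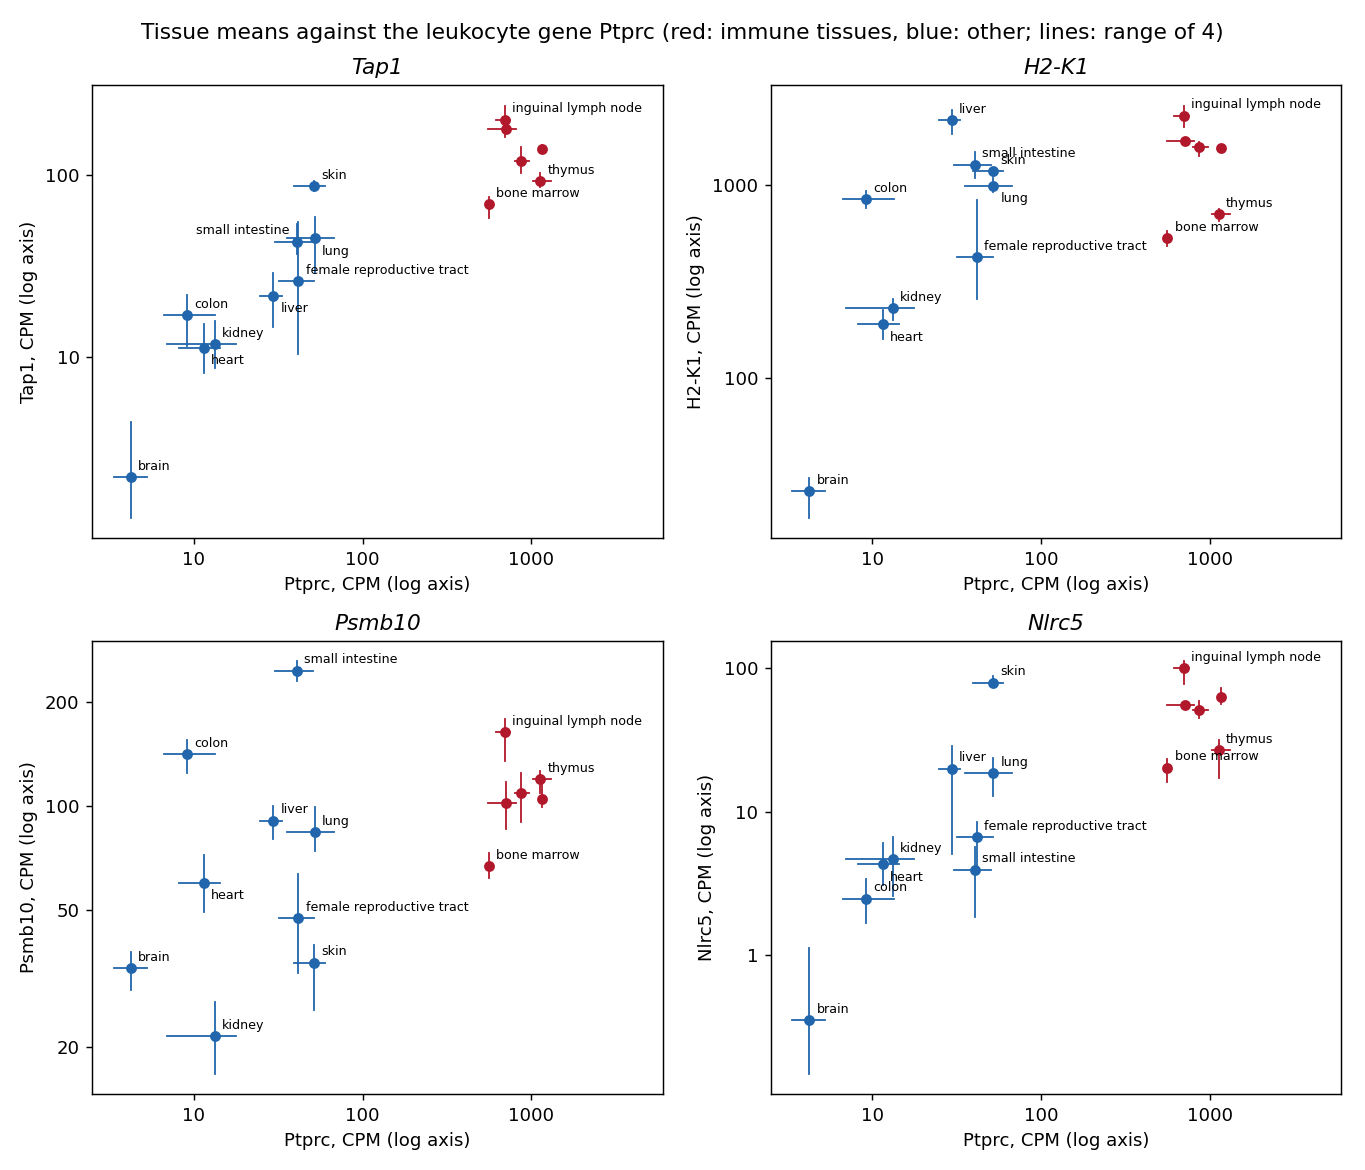
Mean CPM of Tap1, H2-K1, Psmb10 and Nlrc5 against that of Ptprc in 15 tissues (log axes), with lines over the range of the 4 libraries, immune tissues in red and other tissues in blue. Tap1 and Ptprc levels follow a common order (Pearson 0.90), while liver and small intestine lie high for H2-K1 and Psmb10, and skin for Nlrc5, at low Ptprc, and the unlabelled red points are blood, spleen and mesenteric lymph node.

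The 3 genes whose tissue means were most like each of the 10, by Pearson correlation of log2(CPM + 1) over 15 tissues, were found by rule. The nearest of each and some of the others are named here. H2-T23, which encodes the nonclassical class I molecule Qa-1, was nearest to H2-K1 (0.95) and to B2m (0.94). Myd88 was nearest to H2-D1 (0.94), Nfkb1 to Tap1 (0.97), Elk4 to Tap2 (0.97) and Ifi35 to Tapbp (0.96). Ifi47, an interferon-inducible guanosine triphosphatase, was nearest to both Psmb8 (0.97) and Psmb9 (0.96). Gsdmd was nearest to Psmb10 (0.92), with its highest level in small intestine too (220.0 CPM). H2-Q7 (0.96) and H2-Q6 (0.94), nonclassical class I genes, were nearest to Nlrc5, followed by Nfkbia (0.94). H2-Q7 and H2-Q6 are near-identical copies, so their reads may be split between them. Also among the 3 nearest were H2-Aa (0.96) and H2-Ab1 (0.96) for Tap1 and Rpl10 (0.93) for H2-K1. Without brain, Pearson's r with the nearest gene was 0.91 for H2-K1, 0.87 for H2-D1, 0.88 for B2m and 0.88 for Tapbp. It was 0.95 for Tap1, Tap2, Psmb9 and Nlrc5, 0.96 for Psmb8 and 0.92 for Psmb10.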

How the data were processed

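Total RNA was measured in 60 libraries of 15 tissues, with 4 replicates each. The gene counts were deposited by the authors as raw read counts, made with STAR and featureCounts on mouse build mm10 after FastQC, per the submitters' processing notes. The sources used here give no tool versions, annotation release or strand setting. Library totals ranged from 353605 to 5211133 reads, so a gene at a few CPM rests on few reads in the shallow libraries. No molecular identifiers are described, and intervals cover counting error only.

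The 10 genes and the lists of related genes and markers were chosen with earlier results of these data known. Gene positions come from GENCODE M21, in which 54495 of 54532 identifiers were found.

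Counts were analysed in R 4.3.3 with edgeR 4.0.16 (filterByExpr at its count setting of 10 and total setting of 15, TMM scaling, quasi-likelihood test, Benjamini-Hochberg adjustment over every gene in the fit). Calls needed adjusted p below 0.05 together with a log2 fold change of more than 1 in size. Each tissue was tested against the mean of the other 14, and 6 immune tissues against 9 others, in 1 fit of all libraries. The class comparison was repeated with limma 3.58.1 on 15 tissue means of log2 CPM (prior count 2), which takes the tissue as the unit. The 7 pairs of tissues were fitted on their own 8 libraries. Ratios were log2 of counts plus 0.5, averaged by tissue, with an exact permutation test over tissues (Python 3.11.15, scipy 1.17.1). Likeness was the Pearson correlation of log2(CPM + 1) tissue means. DESeq2 1.42.0, its size factors, library totals, no filter, a replicate term, other pseudocounts and libraries left out were the alternatives. The models were tested on simulated data.

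All 10 genes are named in the comparisons, with up to 4 called genes per other list, those with the largest change and a mean of at least 5 CPM in either group, and any gene called against its list. One gene that this rule names is not reported here. For likeness the 3 nearest genes of each were found, leaving out unnamed gene models. The sources do not say that a replicate number marks 1 mouse, so tissues are treated as independent samples. Yet 48 of 60 libraries correlated best with their own number, so this may not hold. The p-values measure the spread between these samples and do not allow for such pairing.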

Additional observations from a re-analysis of the deposited data

Results flagged for a closer look

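In 195 groups of 4 libraries (the 10 genes and 3 catalytic ratios in 15 tissues), 11 had 1 library whose gap to the nearest of the others was more than 0.829 of the group's range. Chance gives about 1 in 20 groups. In the female reproductive tract H2-K1 was at 833 CPM in replicate 4, against 257 to 323 CPM in the others. In brain Tap1 was at 4.39 CPM in replicate 3, the library with high Defa24, against 1.31 to 1.70 CPM. B2m in colon was at 556.5 CPM in replicate 2, below the 722 to 739 CPM of the others, and Psmb10 in skin was at 25.7 CPM in replicate 2, below 37.3 to 39.4 CPM. Tap2 in heart was at 20.5 CPM in replicate 3, against 14.9 to 15.6 CPM. Psmb9 in lung was at 51 CPM in replicate 1, against 35.6 to 36.4 CPM.

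In kidney Psmb8 was at 36.4 CPM in replicate 1, against 22 to 24.3 CPM, and its log2 ratio to Psmb5 was -1.14 there, against -1.85 to -1.75. Also in kidney, the log2 ratio of Psmb10 to Psmb7 was 0.96 in replicate 3, against 0.41 to 0.48. The log2 ratio of Psmb9 to Psmb6 was 0.00 in blood replicate 1, against 0.46 to 0.54 in the others, and -0.97 in thymus replicate 4, against -0.54 to -0.46.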

How the results depend on the processing

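No called value of the 10 genes changed sign under any alternative. Library totals alone, which moved the median of all genes to -1.38 in heart, -1.22 in liver, 0.53 in the female reproductive tract and 0.61 between thymus and bone marrow, changed the most counts of called genes. No share of all genes is given beside counts under library totals, here or above. With totals, 1 gene was called higher in colon (0 with TMM) and 1 lower (3), 1 higher in small intestine (2), 0 higher in liver (2) and 4 lower (0), 1 higher in lung (0) and 0 lower in the female reproductive tract (4). Between thymus and bone marrow 4 were then called higher (2), and between heart and brain 4 (8). Smaller moves were to 8 higher in spleen (7), 9 in mesenteric lymph node (7) and 6 in thymus (5). In heart 10 were then lower (7), and in kidney 10 (9). Small intestine was then higher than colon for 3 (4) and liver higher than kidney for 6 (7). In edgeR the immune class was then higher for 10 (8). DESeq2, and its size factors in edgeR, called 1 gene higher in small intestine, 1 lower in liver and 1 lower in the female reproductive tract. Without the filter 1 was lower in liver. Without the 4 libraries that stand apart, an alternative chosen after seeing the data, 7 were lower in the female reproductive tract. Leaving out 1 replicate number at a time, in all tissues, gave 0 to 8 lower genes in the female reproductive tract (also 0 to 8 with only 1 library of that tissue left out), 1 to 2 higher in small intestine (1 without replicate 4), 0 to 1 lower in liver (1 without replicate 1), 0 to 1 lower in spleen than in blood, 8 to 10 higher in inguinal lymph node and 7 to 9 higher in liver than in kidney. The differences in log2 ratio then ranged from 3.31 to 3.49 for Psmb8 to Psmb5, from 3.08 to 3.13 for Psmb9 to Psmb6 and from 0.91 to 1.10 for Psmb10 to Psmb7. In limma with totals H2-D1 (1.95) was also called higher in the immune tissues, which made 6 genes in place of 5.

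With a replicate block, 3 genes were called lower in the female reproductive tract in place of 4, since B2m was at -0.99, and no other call of the 10 genes changed. Same-numbered libraries of different tissues had a median correlation of deviations of 0.01 over 420 pairs, of which 7 were above 0.1. Pairs with different numbers had a median of -0.01 over 1260 pairs, of which 16 were above 0.1. Yet 48 of 60 libraries correlated best, on average, with their own number, where chance would favour each of the 4 numbers alike. Whether a number marks a shared mouse or batch was not tested, so the samples may not be independent.

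Depth limits Nlrc5 in brain (5 reads), colon (11) and small intestine (37), Psmb9 (22) and Tap1 (29) in brain, and Psmb7 in colon and lung (45 each). Replicate 3 of the female reproductive tract was the shallowest library, with 353605 reads.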
